A study of Drosophila melanogaster with 4 samples.

Results

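The gap genes hunchback (hb), knirps (kni), knirps-related (knrl), giant (gt) and tailless (tll) were examined for peaks of Cmi in Drosophila melanogaster embryos. The 5 genes were represented by 4 intervals on FlyBase release 5, since knrl and kni are neighbours, and a peak was counted in an interval when its midpoint lay there. The rule set the intervals by position, and the genes were picked with earlier results of these data known. The intervals were 3R from 4505000 to 4535000 for hb, 3L from 20590000 to 20710000 for knrl and kni, X from 2310000 to 2335000 for gt and 3R from 26660000 to 26690000 for tll. They span 205 kb in all and held 2 of the 3110 deposited peaks. One lay in the hb interval and one in the knrl and kni interval, while the gt and tll intervals held none. For scale, 1 peak or more was found in 32.4% of stretches as long as the hb or tll interval on 3R, 71.6% of those as long as the knrl and kni interval on 3L and 23.1% of those as long as the gt interval on X.

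Chromatin of embryos labelled 0 to 8 h was immunoprecipitated with a polyclonal rabbit antibody raised against the full-length Cmi protein in 2 libraries. A further 2 libraries held input DNA as the control. Both groups came from the strain Exd-GFP-13T with the genotype w; PBac{y[+]-attP-3B}VK00033, which carries a genomic copy of the extradenticle gene (exd) ending in GFP in place of its stop codon, and embryos of either sex were not told apart. No second genotype, stage or antibody was compared, and the extraction protocol in the labels describes an older collection and another stock. The experiment is represented by a single list of peaks with no value for a single library, so neither depth nor the spread between the replicates can be given, and every value below describes this 1 list without a test.

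Gap genes form the first zygotic tier of the segmentation hierarchy in the fly. They encode transcription factors that are expressed in broad domains of the early embryo, read maternal gradients such as that of Bicoid, repress one another and position the stripes of the pair-rule genes. Cmi (Cara Mitad, CG5591; release 6 symbol Lpt) belongs to the Trithorax-related complex, a histone H3 lysine 4 methyltransferase known for its work at enhancers. By the stage label of 0 to 8 h, which was followed here, the embryos mix stages at which gap genes are active with later ones. In those later stages several of the same genes are used again in the nervous system, the tracheae or the head. The extraction protocol, which describes an older collection, was not reconciled with this label. Krüppel, another classical gap gene, was not analysed here.

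The peaks in the gap gene intervals were fewer than the mean density of their chromosome arms would give. At the mean density of 3R, 3L and X, stretches of the same lengths would hold 4.60 peaks in sum, against the 2 observed. By interval these mean values were 0.740 peaks for hb, 2.66 for knrl and kni, 0.452 for gt and 0.740 for tll. Means of this kind are raised by a few crowded stretches, so each interval was also set beside sliding stretches of its own length on its own sequence, starting every 1 kb within the span of its peaks. There were 27734 such stretches of 30 kb on 3R, 24214 of 120 kb on 3L and 21827 of 25 kb on X, and these are the basis of the percentages given at the outset. The median stretch held 0 peaks on 3R, 2 on 3L and 0 on X. None of the 4 counts therefore lay outside the common range of its own arm.

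**Figure D1:**
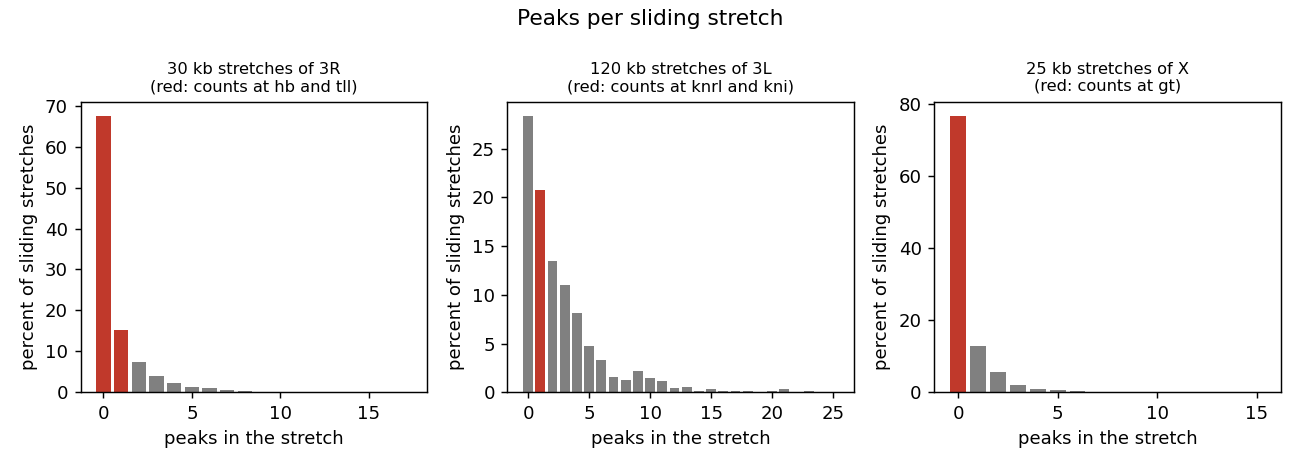
Percent of sliding stretches (vertical axis) by the number of peaks they held (horizontal axis), for stretches as long as the hb and tll intervals on 3R, the knrl and kni interval on 3L and the gt interval on X. Red bars mark the counts found in the gap gene intervals, which were 0 and 1 on 3R, 1 on 3L and 0 on X, each among the 2 most frequent counts of its panel.

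hb encodes a zinc finger transcription factor of the anterior embryo, supplied both maternally and zygotically. Its interval held a single weak and narrow peak on 3R at 4512962 to 4513191, which measured 230 bp and scored 7.78. It is called the hb peak after the interval and was not assigned to a gene. The score is the authors' own value for each peak and is compared here only between peaks of this list. Only 125 of the 3110 peaks, or 4.02%, scored this low or lower, and the lowest score of the list was 6.09. On 3R, 29 of 685 peaks scored as low and 69 were as narrow or narrower. The peak lay 8.08 kb inside the lower end of the interval and covered 0.767% of it. Of the 3R stretches of this length, 15.3% held exactly 1 peak, and 98.4% of those had a peak that scored 7.78 or more.

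The peaks nearest to the hb interval scored below the 3R median of 14.36, though higher than the hb peak. The nearest peaks outside the interval were at 4485164 to 4485599 (score 13.01, width 436 bp) and at 4573181 to 4573516 (score 10.32, width 336 bp). Their midpoints lay 19.6 kb below and 38.3 kb above the interval. Together with the hb peak they left stretches of 27.4 kb and 60.0 kb without a peak. Within 100 kb on either side of the interval there were 5 further peaks, 1 in the 100 kb below and 4 in the 100 kb above. 3R as a whole averaged 2.47 peaks per 100 kb, which lies between the 1 and the 4 of these flanks. Of the 5, 4 scored between 9.94 and 13.01. The fifth, at 4633520 to 4635333, scored 66.45 with a width of 1814 bp, but its midpoint was 99.4 kb from the interval. Measured midpoint to midpoint, the hb peak was 27.7 kb from its nearest neighbour, where the median on 3R was 1.94 kb. Of the 685 peaks of 3R, 81 were as isolated, with a median score of 13.27. Of these 81, 2 scored 7.78 or lower, the hb peak included, against 29 (4.23%) of all 685.

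**Figure D2:**
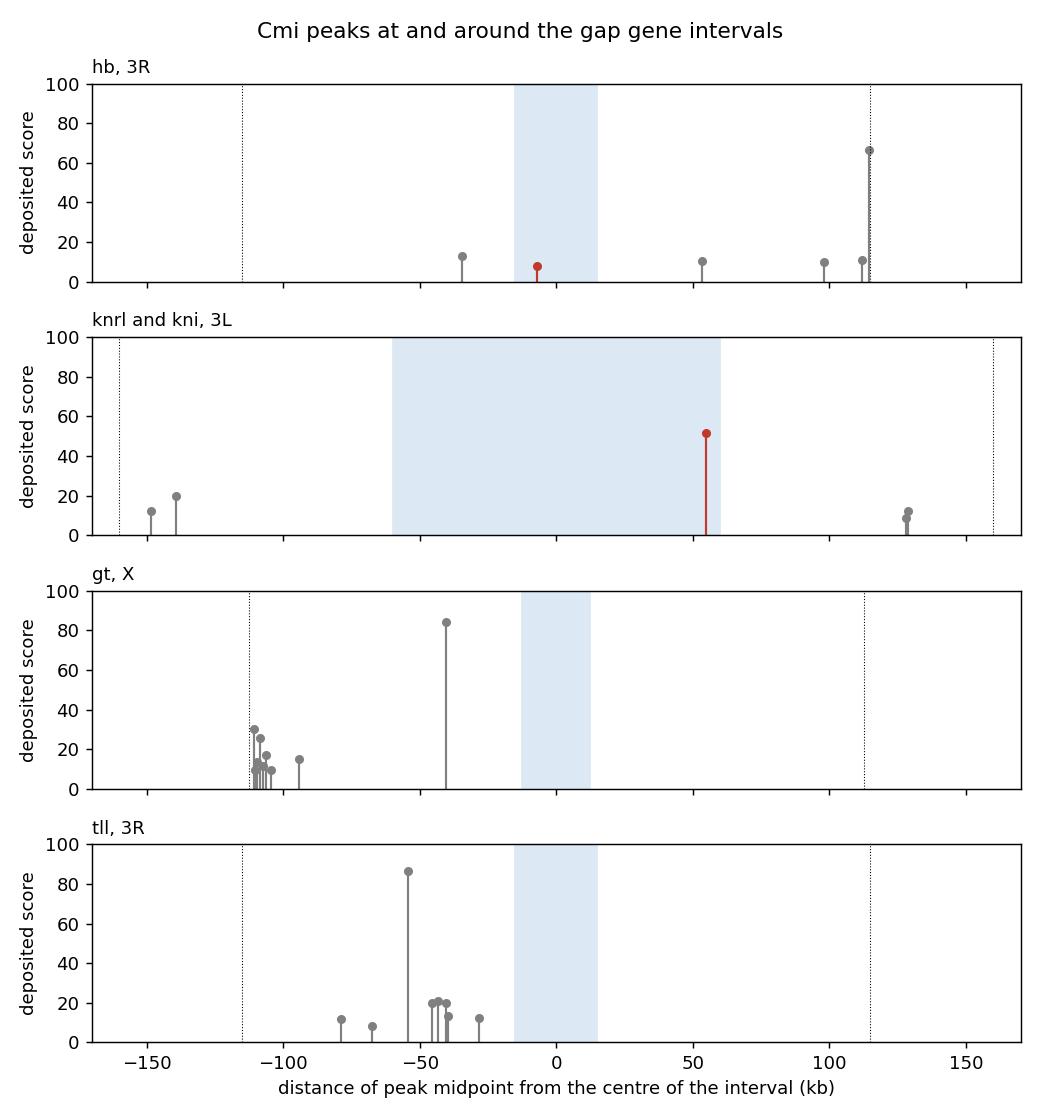
Peaks within 100 kb of each gap gene interval, as distance of the peak midpoint from the centre of the interval in kb (horizontal axis) and deposited score (vertical axis). Shading marks the intervals, dotted lines the limits of the 100 kb flanks, red the 2 peaks inside an interval (7.78 at hb and 51.52 at knrl and kni) and grey the peaks outside; the gt and tll intervals are empty and so are the 100 kb above each of them.

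knirps and knirps-related encode a pair of related zinc finger proteins of the nuclear receptor superfamily that are expressed in overlapping patterns. kni is the gap gene of the abdomen, and both genes act later in tracheal and wing vein development. Their 120 kb interval held 1 peak, on 3L at 20704443 to 20704899, which measured 457 bp and scored 51.52. In contrast to the hb peak it was strong: 209 of all 3110 peaks (6.72%) and 22 of the 540 peaks on 3L (4.07%) scored as high or higher. The highest score on 3L was 90.53. Stretches of 120 kb with a single peak made up 20.7% of those on 3L. In 2.01% of these the peak scored 51.52 or more, and in 99.4% it scored 51.52 or less. Both shares count the overlapping stretches that hold this same peak, so they are not a background independent of it. Of all the 3L stretches of this length 8.50% had a top score as high, and 11.9% of those with a peak.

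The peak lay close to the upper end of the interval, 115 kb from its lower and 5.33 kb from its upper limit. Towards increasing coordinates, the protein-coding genes follow each other as knrl, CG13251, kni and cmpy in the release 6 gene table, so kni and cmpy would be the genes nearest to this end if the order is the same on release 5. Gene positions on release 5 were not used here, and the peak was not assigned to a gene. The other 114 kb of the interval, 95.4% of its length, belonged to a stretch without a peak that ran for 194 kb from 20510905 to 20704442. This was the 23rd longest of 539 peak-free stretches on 3L, and stretches as long or longer held 34.3% of the length of 3L.

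The peak of the knrl and kni interval stood alone and was narrow for its score. Its nearest neighbours, 73.6 kb above and 194 kb below by midpoint, were far weaker, at 20778050 to 20778432 with a score of 8.83 and at 20510429 to 20510904 with 19.52. Within 100 kb of the interval there were 4 peaks, and none of them exceeded that 19.52. Only 31 of the 540 peaks on 3L were as far from their nearest neighbour. The median score of these 31 was 13.99, and it had the highest score among them. Among the 100 peaks of the major arms (2L, 2R, 3L, 3R, 4 and X) nearest to it in score, which ran from 42.9 to 59.9, the median width was 1208 bp with quartiles of 903 and 1672 bp. Just 3 of these 100, itself included, were 457 bp wide or less. On Uextra, the collection of unplaced sequence, the 92 peaks in that range of scores had a median width of 380 bp. Whether repeated sequence or the local input has a part in the shape of the peak was not tested. The hb peak, by comparison, had the usual width of weak peaks: the 100 nearest to it in score had a median of 248 bp, and 38 of them were as narrow.

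**Figure D3:**
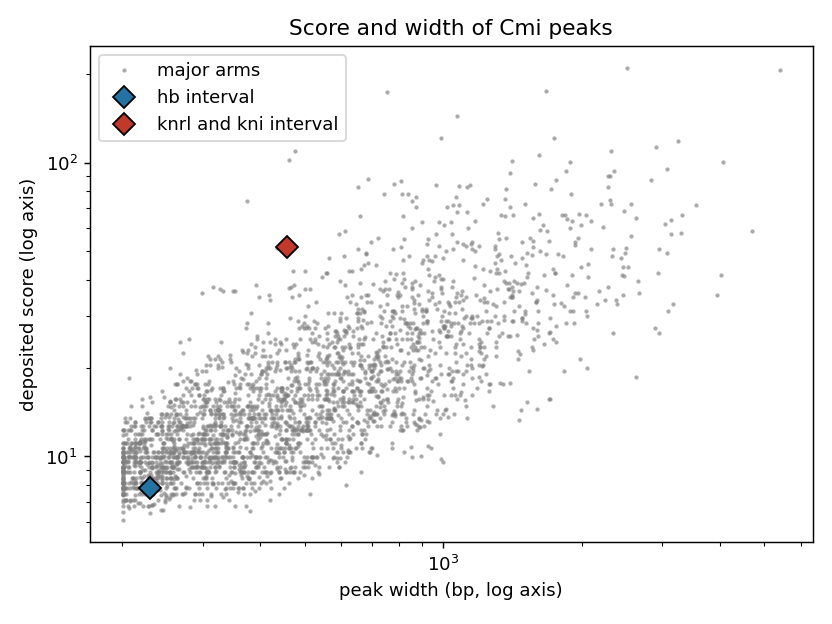
Deposited score (vertical log axis) against width in bp (horizontal log axis) for the 2679 peaks of the major arms, with the peaks of the hb interval (230 bp, score 7.78) and the knrl and kni interval (457 bp, score 51.52) as diamonds. The hb peak lies within the crowd of weak narrow peaks, and the knrl and kni peak at the narrow edge of the peaks that score as high.

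Both scores could be turned into heights of reads. The scores that recur in the list, each shared by 5 peaks or more, follow the negative log10 of a Poisson upper tail. That tail is the probability of a given whole number of reads or more against a background of 31.1 reads. The series matched 77 of the 84 recurrent values within 0.0061. No background more than 1 read away matched over 11. On this reading the hb peak had a height of 67 reads, or 2.15 times the background, and the peak of the knrl and kni interval 149 reads, or 4.79 times. Both scores lay within the tolerance of the series. The scale was inferred from the values, because the file does not name it.

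gt encodes a leucine zipper transcription factor expressed in an anterior and a posterior domain. No peak was called in its 25 kb interval on X, as was the case in 76.9% of the stretches of that length. The interval lay inside a peak-free stretch of 197 kb, from 2282666 to 2479688, the 31st longest of 394 on X. Stretches as long as this or longer made up 7.87% of the peak-free stretches by number and held 45.8% of the length of X. The nearest peak below was at 2281700 to 2282665, 27.8 kb from the interval, with a score of 84.1 and a width of 966 bp. Its score was the second highest of the 395 peaks on X, behind 90.53. The nearest peak above lay 145 kb away, at 2479689 to 2479989, and scored 16.21.

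Peaks below gt thinned out towards the interval. The 15 peaks of the fullest 25 kb stretch on that chromosome lay at 2192606 to 2216471, a group that ended 93.5 kb short of the gt interval. Of the 9 peaks within 100 kb of the interval, all lay on that lower side, and 6 of them belonged to this group. Of these, 8 scored between 9.19 and 30.14, and the remaining one was the peak of 84.1 already named. Behind that peak a further 53.3 kb were empty, down to the peak at 2228083 to 2228429. None of these peaks was assigned to a gene.

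tll encodes an orphan nuclear receptor that acts at both ends of the embryo and later in the brain. Its 30 kb interval on 3R held no peak, like 67.6% of the stretches of that length. It lay within a peak-free stretch of 238 kb, from 26646814 to 26885223, which was the 26th longest of 684 on 3R. Stretches as long or longer made up 3.80% of the peak-free stretches on 3R and held 33.4% of its length. The nearest peak below, at 26646419 to 26646813, scored 12.30 and lay 13.4 kb from the interval. The nearest above, at 26885224 to 26885424, scored 11.09 and lay 195 kb away. As at gt, the 100 kb above the interval were empty and the 100 kb below were not. The 8 peaks there scored from 8.11 to 86.5, the highest at 26620158 to 26620966. That peak was 809 bp wide and had the 10th highest score of the 685 peaks on 3R, at 39.4 kb from the tll interval.

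**Figure D4:**
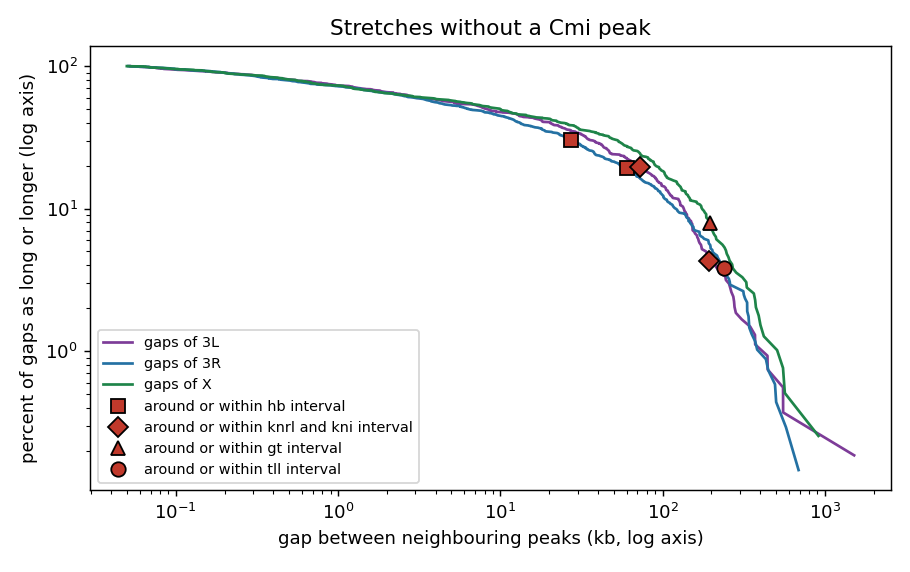
Percent of peak-free stretches as long or longer (vertical log axis) against their length in kb (horizontal log axis) for 3L, 3R and X. Symbols mark the peak-free stretches that contain or overlap the gap gene intervals: those of 197 kb at gt, 238 kb at tll and 194 kb in the knrl and kni interval lie where at most 7.87% of the stretches of their arm are as long, although stretches of such lengths hold 33.4% to 45.8% of the arms, and those beside the hb peak (27.4 and 60.0 kb) and above the peak of the knrl and kni interval (73.2 kb) do not.

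The flanks of the 4 intervals, 100 kb on either side, differed in their peaks. Over both sides together they held 5 peaks at hb, 4 at knrl and kni, 9 at gt and 8 at tll. The 100 kb below held 1, 2, 9 and 8 of these in the same order, and the 100 kb above 4, 2, 0 and 0. Beside these counts per side, the whole arms averaged 2.47 peaks per 100 kb on 3R, 2.22 on 3L and 1.81 on X. All flanks, 800 kb in sum, held 26 peaks, or 3.25 per 100 kb. At gt and tll all of the flank peaks lay on the lower side. Strong peaks, of 66.45, 84.1 and 86.5, lay in the flanks of hb, gt and tll, and none as strong lay beside knrl and kni. The one at hb was 99.4 kb from the interval, just within the limit of 100 kb. How often flanks of this length elsewhere hold so strong a peak was not counted. A stretch without a called peak is not shown to lack Cmi, since the list holds only what passed the caller's threshold, and the share of cells in which a gap gene is active in such a mixed collection was not measured.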

How the data were processed

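The authors deposited 1 list of 3110 peaks with a position and a score each. Per the file headers the positions are on FlyBase release 5 (1-based) and the caller was MACS. The build BDGP5 and the tools BWA, MACS2 and CASAVA (1.7.0.2 and 1.7.0.3) are named, per the submitters' processing notes. For their order, the thresholds and any pooling of the 2 Cmi and 2 input libraries, the entry is: not given in the sources used here. The deposited score has no stated scale.

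Peaks were counted by midpoint, and peak-free stretches were measured edge to edge. The span of an arm ran from its first to its last peak. All computations used Python 3.11.15, numpy 2.4.6, pandas 2.3.3 and scipy 1.17.1, and the counting of stretches was tested on simulated data. Stretches overlap and are not independent, so their shares are descriptions. They include the stretches that overlap the gap gene intervals themselves. All 5 genes and every peak in their intervals were to be named, with the nearest peak outside each end. The genes and intervals were chosen with earlier results of these data known. The share of stretches with no peak, the peak-free stretches, the 100 kb flanks, the isolation and the widths at matched scores were added after the counts had been seen. Also outside the plan were the counts at mean density, the stretches with a single peak, the widths on Uextra and the heights of reads. The gene table is of release 6 and served for names and gene order only. Planned descriptions of other gap and maternal genes were not made, because no annotation of release 5 was used here.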

Additional observations from a re-analysis of the deposited data

How the results depend on the processing

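Of 88 alternatives, 61 stayed within 1.5 times the count or within the 95% Wilson interval of the share, taken over as many stretches as fit side by side, and 27 did not. The hb count became 0 among scores above the median and above the upper quartile; the other 3 counts did not change under any alternative. The peak of the knrl and kni interval stayed in the interval shortened by 5 kb only because it lies 5.33 kb from the end. For hb, the shares of stretches with as many peaks, as much cover and as high a top score (32.4%, 30.6% and 32.2%) were 100%, 94.5% and 99.2% of the stretches with a peak, 24.5%, 23.1% and 24.3% with the interval shortened by 5 kb at each end, and 38.9%, 36.9% and 38.6% with it lengthened; all 3 were 100% among scores above the median, where the hb count is 0. For knrl and kni, the shares for number and cover (71.6% and 60.8%) were 100% and 85.0% of the stretches with a peak and 51.6% and 46.3% among scores above the median. The share with as high a top score ran from 7.80% to 11.9%. The share of stretches with no peak, 76.9% for gt, was 87.1% among scores above the median, 84.5% and 70.2% for shorter and longer intervals and 72.0% over the 5 large arms. For tll it was 67.6%, and 79.9%, 75.5% and 61.1% under the first 3 of these. It is 0% by construction where only stretches with a peak are used. Longer stretches hold more peaks and a list of fewer peaks leaves more empty, by construction. For gt and tll the shares with as many peaks, cover or score are 100% under any setting and were not tabulated. No paired analysis was possible because the deposited peaks carry no values by library, and no replicate could be left out for the same reason. Depth is unknown.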
